A study of Drosophila melanogaster with 10 samples.

Results

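The genes described here make, store and release lipid: 10 genes of fatty acid synthesis, desaturation, triglyceride assembly, the lipid droplet, lipolysis and lipid transport in the fruit fly Drosophila melanogaster. They were chosen by gene symbol from the array's platform annotation, which gave 13 probe sets for the 10 genes among 14010 probe sets on the array. The values come from total RNA of whole adult females of 10 laboratory lines, 1 array per line: 5 lines selected for heat resistance (called selected) and 5 non-selected control lines. The series design states that the lines are independent, and each error below is therefore one between lines. Age, mating status, feeding, and whether flies met heat before sampling were not used here.

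Flies build fatty acids from acetyl-CoA, store them as triglyceride in the droplets of the fat body, and release them by lipase action when energy is needed. Oenocytes, cells beneath the cuticle, use the same first steps to make long-chain hydrocarbons that coat the cuticle and limit water loss. Developing eggs take up much of a female's lipid, carried there by lipoproteins of the blood.

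All levels below are log2(intensity + 1) of a probe set, and all differences are selected minus control on that scale, on which changes of dim genes look smaller than they are. All 13 probe sets passed the filter on dim values, and 10960 features in all were tested with limma. For ACC, mdy and apolpp, which have 2 probe sets each, the brighter one stands for the gene unless stated. Array medians lay between 41.9 and 48.3 intensity units. Line 1 of both groups stood apart along the first principal component (33.6% of the variance) and had the largest 3' excess, the mean log2 ratio of 3' to 5' signal over 3 control transcripts of the fly. That excess was 2.27 in control line 1 and 2.76 in selected line 1, against 1.43 to 1.93 in the other lines, so results are also given without line 1 of both groups. In whole flies, a change in the number of cells of a type cannot be told apart from a change in RNA per cell.

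Across the 10 genes, the oenocyte-linked synthase gene FASN2 and the phosphatidate phosphatase gene Lpin had higher means in the selected lines, and the triglyceride lipase gene bmm had a lower one. In all, 5 of the 10 genes had higher and 5 lower means, where 53.7% of all features had higher ones. These 3 of 10 genes were at an unadjusted p under 0.05 in limma, against 9.52% of all features tested, with 2 higher (5.55% of all features) and 1 lower (3.97%). The 10 genes were chosen with earlier results of these data known, so these shares are a description and not a test. With Benjamini-Hochberg adjustment over all features, 0 of 10 passed, as did 0% of all features. The smallest adjusted p among the 10 genes was 0.259 in limma, for FASN2, where the smallest over all features was 0.232. The other 7 genes differed by at most 0.24 in size, and the median over the 10 was 0.014, beside 0.0075 over all features. For 9 of the 10 genes, all but FASN2, the 95% interval of the fold change lay within 1.5-fold in either direction. That of apolpp did so narrowly, from 0.669 to 1.08, and its second probe set, at 0.607 to 0.995, did not.

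**Figure D1:**
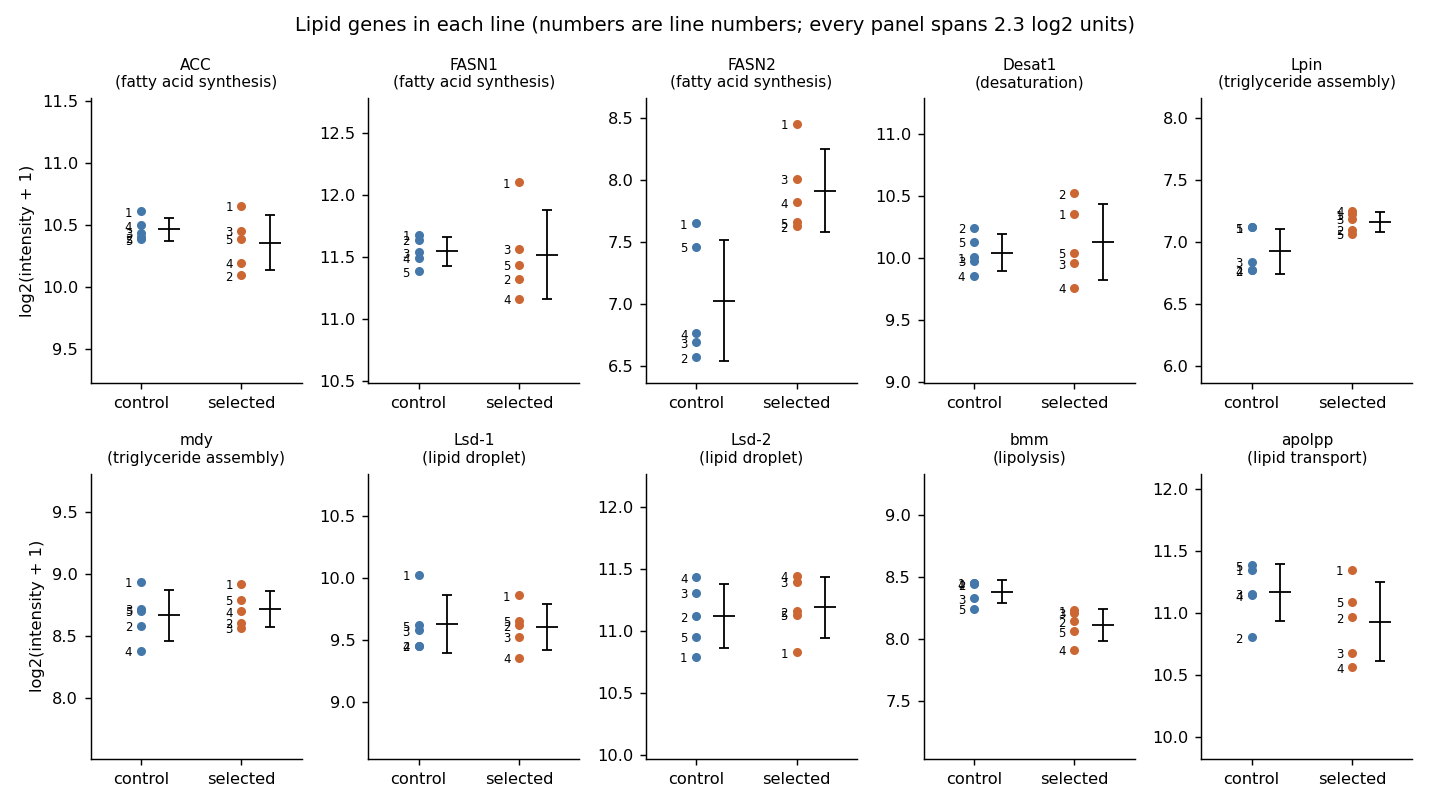
Level of each of the 10 lipid genes, as log2(intensity + 1), in the 5 control and 5 selected lines. Points carry the line number, and the bar and whiskers beside them are the mean and SD of the 5 lines. Of the 10 genes, bmm is the one whose groups do not overlap, and 4 selected lines lie above all control lines for FASN2.

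Fatty acid synthesis begins with ACC, acetyl-CoA carboxylase, which makes the malonyl-CoA that fatty acid synthases join into chains. FASN1 encodes the synthase of the fat body and other tissues, and FASN2 a synthase known from adult oenocytes, where it serves the making of methyl-branched cuticular hydrocarbons. The FASN2 level was 7.65, 6.57, 6.69, 6.77 and 7.46 in control lines 1 to 5 and 8.45, 7.63, 8.01, 7.82 and 7.66 in selected lines 1 to 5. Thus 4 selected lines were above every control line, while selected line 2 lay just under control line 1, and control lines 2, 3 and 4 were the lowest of all 10. The group means were 7.03 ± 0.49 and 7.91 ± 0.34 (SD, n = 5 each). FASN2 differed by 0.89 ± 0.23 (SE), a 1.85-fold higher level (95% interval 1.30 to 2.62), at an unadjusted p of 0.00257 and an adjusted p of 0.259 in limma. The two-sided exact permutation test over the 252 labelings of the lines gave p = 0.0159. Without line 1 of both groups FASN2 differed by 0.91, at an adjusted p of 0.0989 from limma, within a range of 0.0914 to 0.580 over the 20 alternative settings. The spread of FASN2 between lines was wide: its pooled SD within groups, 0.42, exceeded that of 94.8% of all features.

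The mean of FASN1 showed no such difference. Its level was 11.68, 11.64, 11.54, 11.49 and 11.38 in control lines 1 to 5 and 12.10, 11.32, 11.56, 11.16 and 11.43 in selected lines 1 to 5. The groups overlapped, with selected line 1 the highest and selected lines 2 and 4 the lowest of all 10. FASN1 differed by -0.03 ± 0.15 (SE), a fold of 0.981 with a 95% interval of 0.780 to 1.23. The sign turned when control line 1 or selected line 2 or 4 was left out (0.0053, 0.021 and 0.061), and without line 1 of both groups the difference was -0.14. ACC lay between 10.09 and 10.65 in the 10 lines and differed by -0.11 ± 0.10 (SE). Its second, dimmer probe set lay between 4.81 and 5.41 and differed by 0.11 ± 0.11 (SE), so the probe sets of ACC did not share a sign, and neither was at an unadjusted p under 0.05.

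The paralogues FASN1 and FASN2 lie close together on chromosome arm 2L, with 2 genes of small nuclear RNAs between them in the gene order of the RefSeq table (Release 6 plus ISO1 MT). Their ratio within each line was compared between the groups, which tests unequal change and not their levels. The log2 ratio of FASN2 over FASN1 signals was -4.03, -5.07, -4.84, -4.73 and -3.92 in control lines 1 to 5 and -3.65, -3.70, -3.55, -3.34 and -3.77 in selected lines 1 to 5. Every selected line was above every control line, and the selected lines lay closer together (SD 0.17) than the control lines (SD 0.51). The ratio was 1.88-fold higher in the selected lines, a log2 difference of 0.91 (two-sided exact permutation p = 0.00794, adjusted p = 0.0159 over 2 paralogue pairs), and 0.00794 is the smallest p that 5 lines against 5 can give. This pair was chosen with the difference of FASN2 known. FASN2 alone did not separate the groups, and the ratio also takes in FASN1. Over the 10 lines FASN1 had r = 0.93 with the 3' excess, and 0.77 without line 1 of both groups. For FASN2 these were 0.34 and -0.63, and the part of the excess in the ratio was not tested. Without line 1 of both groups the log2 difference was 1.05, at an exact p of 0.0286 (adjusted p = 0.0571), the smallest value 4 lines against 4 can give.

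**Figure D2:**
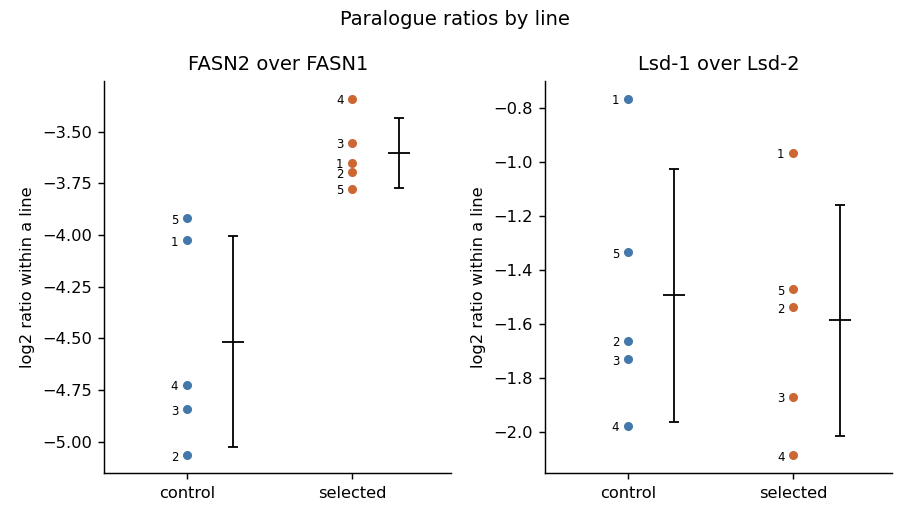
Log2 ratio of FASN2 over FASN1 (left) and of Lsd-1 over Lsd-2 (right) within each line, for 5 control and 5 selected lines. Points carry the line number, and the bar and whiskers are the mean and SD. The FASN2 over FASN1 ratio of all 5 selected lines is above that of all control lines, while the Lsd-1 over Lsd-2 ratio overlaps between the groups.

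Desat1, the delta-9 desaturase that places the first double bond in palmitic and stearic acid, lay between 9.76 and 10.52. Its groups overlapped, and it differed by 0.08 ± 0.14 (SE), with selected lines 2 and 1 the highest and selected line 4 the lowest of the 10 lines. Without selected line 2 the difference was -0.013.

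Triglyceride assembly was followed at its last steps. Lpin, the fly lipin, removes phosphate from phosphatidate to give diacylglycerol and also acts in the nucleus on fat body genes. Its level was 7.12, 6.77, 6.84, 6.77 and 7.12 in control lines 1 to 5 and 7.22, 7.09, 7.18, 7.25 and 7.06 in selected lines 1 to 5. All 5 selected lines exceeded the control median and 3 exceeded every control line, but selected lines 2 and 5 lay below control lines 1 and 5. Lpin differed by 0.24 ± 0.089 (SE), 1.18-fold (95% interval 1.03 to 1.35), at an unadjusted p of 0.0207 and an adjusted p of 0.409 in limma, with an exact permutation p of 0.0476. Without line 1 of both groups it differed by 0.27, and over the 20 alternative settings its adjusted p ran from 0.172 to 0.746 in limma. The gene mdy encodes diacylglycerol acyltransferase, which adds the last fatty acid. It lay between 8.38 and 8.94, with line 1 the highest in both groups, and differed by 0.05 ± 0.11 (SE). Its second probe set differed by -0.02 ± 0.22 (SE), and there selected line 1, at 5.03, was far below the other 9 lines, which ran from 5.54 to 6.21.

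Lsd-1 and Lsd-2 are the perilipins of the fly, which coat the droplet: Lsd-1 takes part in hormone-driven lipolysis, and Lsd-2 shields the stored fat. The Lsd-1 level was 10.02, 9.45, 9.58, 9.45 and 9.62 in control lines 1 to 5 and 9.86, 9.62, 9.52, 9.36 and 9.65 in selected lines 1 to 5. The Lsd-2 level was 10.79, 11.12, 11.31, 11.43 and 10.95 in control lines 1 to 5 and 10.83, 11.16, 11.39, 11.44 and 11.13 in selected lines 1 to 5. The groups overlapped for both genes, and line 1 of both groups was highest for Lsd-1 and lowest for Lsd-2. Between the groups Lsd-1 differed by -0.02 ± 0.12 and Lsd-2 by 0.07 ± 0.14 (SE). The fold changes were 0.985 (95% interval 0.817 to 1.19) and 1.05 (0.843 to 1.31). The log2 ratio of Lsd-1 over Lsd-2 differed by -0.09 between the groups (exact permutation p = 0.738, adjusted p = 0.738 over 2 pairs), and its sign turned without control line 1 (0.091) or selected line 4 (0.033). The sign of Lsd-1 turned without control line 1 (0.077), selected line 4 (0.039) or line 1 of both groups (0.013), and that of Lsd-2 without control line 1 (-0.013).

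The lipase Brummer, encoded by bmm and related to the adipose triglyceride lipase of mammals, starts the breakdown of stored triglyceride. The bmm level was 8.45, 8.44, 8.33, 8.45 and 8.25 in control lines 1 to 5 and 8.23, 8.15, 8.21, 7.92 and 8.07 in selected lines 1 to 5. The groups did not overlap, though control line 5 and selected line 1 lay next to each other. Among the 10 genes bmm was the only one with separate groups, against 1.59% of all features, and 0.785% in its direction. The means were 8.39 ± 0.094 and 8.11 ± 0.13 (SD, n = 5 each). The difference was -0.27 ± 0.078 (SE), a fold of 0.829 (95% interval 0.736 to 0.933), at an unadjusted p of 0.00506 and an adjusted p of 0.304 in limma. The exact permutation test gave p = 0.00794, the smallest it can give. Without line 1 of both groups bmm differed by -0.28, and over the 20 alternative settings its adjusted p ran from 0.152 to 0.645 in limma. Its spread between lines was narrow, with a pooled SD of 0.11, larger than that of 23.7% of features.

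Apolipophorin, the precursor protein of the lipoprotein that carries diacylglycerol through the fly's blood, is encoded by apolpp. Its brighter probe set read 11.35, 10.80, 11.15, 11.14 and 11.38 in control lines 1 to 5 and 11.35, 10.96, 10.67, 10.56 and 11.09 in selected lines 1 to 5. Selected lines 3 and 4 lay below every control line, and selected line 1 beside the highest control lines. The second probe set read 9.44, 9.16, 9.07, 9.20 and 9.46 in control lines 1 to 5 and 8.85, 8.55, 9.01, 8.63 and 9.48 in selected lines 1 to 5. There 4 selected lines lay below every control line and selected line 5 was above them all. The differences had the same sign, -0.24 ± 0.16 and -0.36 ± 0.16 (SE), at unadjusted p of 0.155 and 0.0464 in limma and exact permutation p of 0.206 and 0.0873.

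**Figure D3:**
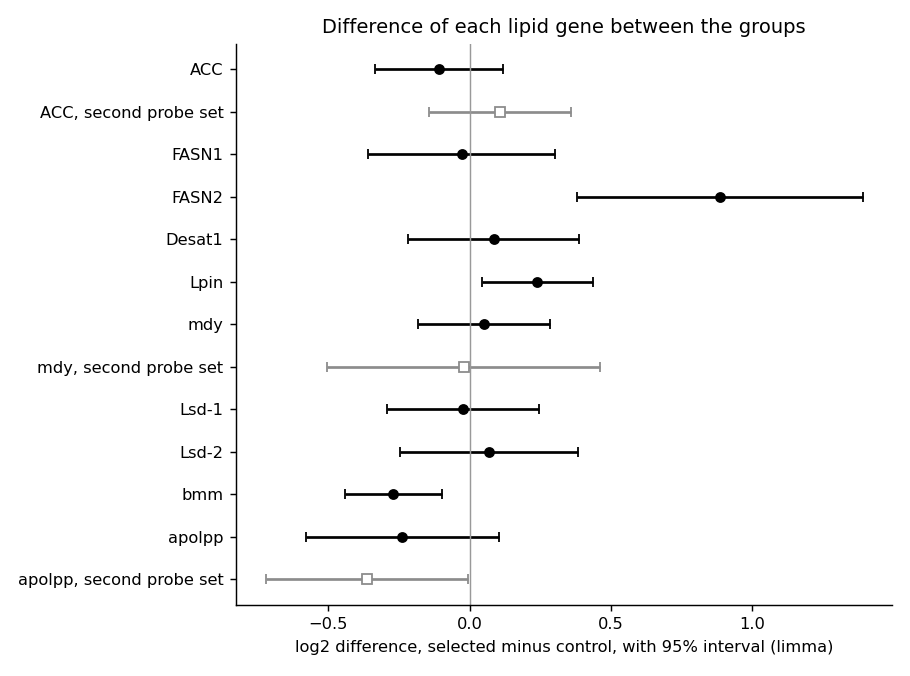
Log2 difference, selected minus control, of each of the 13 probe sets of the 10 lipid genes, with the 95% interval from limma. Filled circles are the probe sets that stand for a gene and open squares the second probe sets of ACC, mdy and apolpp. The intervals of FASN2 (0.38 to 1.39), Lpin (0.044 to 0.44), bmm (-0.44 to -0.099) and the second probe set of apolpp (-0.72 to -0.0068) do not include 0, before any adjustment.

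Some of the 10 genes varied together across lines. Of 45 pairs, 2 passed a permutation test of Pearson's r with 100000 resamples and adjustment over the pairs. FASN2 and Lpin varied together over the 10 lines (r = 0.94, permutation p = 0.00048, adjusted p = 0.0171, and Spearman's rho = 0.84, permutation p = 0.00361, adjusted p = 0.0812). Their r was 0.96 without line 1 of both groups (exact permutation adjusted p = 0.109), 0.88 with group means subtracted (adjusted p = 0.109) and 0.88 without the 2 lines farthest from the FASN2 median. Lsd-1 and Lsd-2 moved in opposite directions (r = -0.86, permutation p = 0.00076, adjusted p = 0.0171, and rho = -0.82, permutation p = 0.00565, adjusted p = 0.0847). For this pair r was -0.66 without line 1 of both groups (exact permutation adjusted p = 0.397). Those are also the 2 lines farthest from the Lsd-1 median, so leaving these out is the same check. The relation no longer passed there and rests in part on those lines. With group means subtracted r was -0.86 (adjusted p = 0.0844). ACC, read by its brighter probe set, and FASN1 had r = 0.82 (permutation p = 0.00345, adjusted p = 0.0517, and rho = 0.88, permutation p = 0.00171, adjusted p = 0.0769), and 0.74 without line 1 of both groups.

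The 3' excess of the control transcripts, a reading of RNA integrity or of how completely RNA was copied, moved with several of these genes. Of 10 genes compared with it over the 10 lines, FASN1 had r = 0.93 (permutation p = 0.00029, adjusted p = 0.0029, rho = 0.79, permutation p = 0.00903) and Lsd-2 r = -0.81 (permutation p = 0.00124, adjusted p = 0.0062, rho = -0.87, permutation p = 0.00227). ACC and Lsd-1 also passed, with r of 0.77 and 0.78 (adjusted p = 0.0299 for both in the permutation test, rho = 0.64 and 0.59, permutation p = 0.0545 and 0.0814). For ACC this holds for the brighter probe set alone, which was highest in control and selected line 1 (10.61 and 10.65). Its second probe set was lowest in those lines (4.81 and 4.98) and was not compared with the excess. The brighter probe sets of apolpp and mdy did not pass, with r of 0.67 and 0.65 (permutation p = 0.0298 and 0.0448, adjusted p = 0.0596 and 0.0746). Their rho was 0.71 and 0.59 (permutation p = 0.0268 and 0.0821). Without line 1 of both groups, the 2 lines whose excess lay farthest from the median, r was 0.77 for FASN1, -0.64 for Lsd-2, 0.56 for ACC and 0.44 for Lsd-1. With the same lines left out it was 0.60 for apolpp and -0.0057 for mdy. For the genes with the smallest p between groups, r was 0.34 for FASN2 (permutation p = 0.333, rho = -0.10), 0.15 for Lpin (permutation p = 0.722, rho = -0.14) and 0.41 for bmm (permutation p = 0.243, rho = 0.61). Without line 1 of both groups those were -0.63, -0.64 and 0.76. Between the groups the excess had means of 1.92 ± 0.21 for control and 1.85 ± 0.52 for selected lines (SD over 5 lines, exact permutation p = 0.802), with selected line 1 far above the rest of its group. With line 1 of both groups left out it ran from 1.72 to 1.93 in the 4 control and from 1.43 to 1.74 in the 4 selected lines, 3 of which lay below every control line (difference -0.21, exact permutation p = 0.0571). The comparisons without line 1 are therefore nearly split by the excess as well, and its part in the differences of these genes was not tested.

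**Figure D4:**
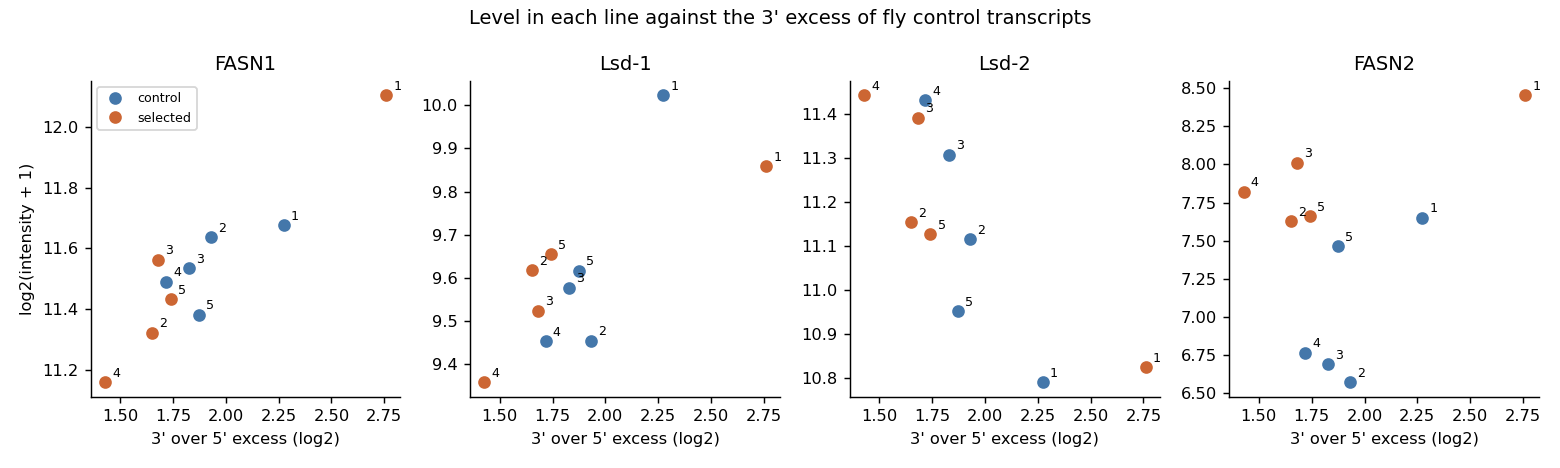
Level of FASN1, Lsd-1, Lsd-2 and FASN2, as log2(intensity + 1), against the 3' over 5' excess of 3 fly control transcripts (log2), 1 point per line with its line number. Line 1 of both groups lies at the right end of every panel, at 2.27 and 2.76. FASN1 and Lsd-1 are high there and Lsd-2 is low. Of the other lines, selected lines 2, 3 and 4 lie to the left of every control line in all panels.

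Other genes of lipid metabolism were read from 8 pathway lists, 132 measured genes in all, of which 122 are not among the 10 genes above. Of these 122, 18 were at an unadjusted p under 0.05 (14.8%, against 9.52% of all features), with 14 of them above and 4 below the control mean. With adjustment over all features 0 of the 122 passed in limma. Most of the higher ones came from a single list. Among 22 genes of desaturation and elongation, 17 had higher means, 9 were higher at an unadjusted p under 0.05 (5.55% of all features were) and 0 were lower. The other 13 genes of the list differed by -0.38 (CG9747) to 0.26 (CG33110). The median of the list was 0.079, and 0.25 without line 1 of both groups. The elongase gene CG16904 read 9.72, 8.68, 8.87, 9.06 and 9.51 in control lines 1 to 5 and 9.94, 10.07, 10.06, 10.32 and 9.84 in selected lines 1 to 5. Its groups did not overlap, and it differed by 0.88 ± 0.18 (SE), 1.84-fold (unadjusted p = 0.000523 and adjusted p = 0.234 in limma). Fad2, the desaturase that makes the female's cuticular dienes, read 10.33, 9.78, 9.88, 9.84 and 10.55 in control lines 1 to 5 and 10.30, 10.82, 10.78, 10.72 and 10.69 in selected lines 1 to 5. Here 4 selected lines were above every control line and selected line 1 was not, and the difference was 0.58 ± 0.16 (SE, unadjusted p = 0.00349 and adjusted p = 0.269 in limma). The elongase gene CG6660 differed by 0.61 ± 0.19 (SE).

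The other 6 genes of this list at an unadjusted p under 0.05, named after their values were seen, were eloF, a female-biased elongase gene of pheromone synthesis (0.71), the elongase genes CG18609 (0.71), CG9458 (0.59) and CG9459 (0.49), and the desaturase genes CG9743 (0.72) and CG15531 (0.36). Each of the 9 had its lowest level of the 10 lines in control line 2 or 3, and FASN2 had its lowest in control line 2. Over the 10 lines their r with FASN2 ran from 0.66 for CG9743 to 0.91 for CG18609, and from 0.29 to 0.83 with group means subtracted. These values describe 10 lines that share the group difference, and no test was made of them.

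**Figure D5:**
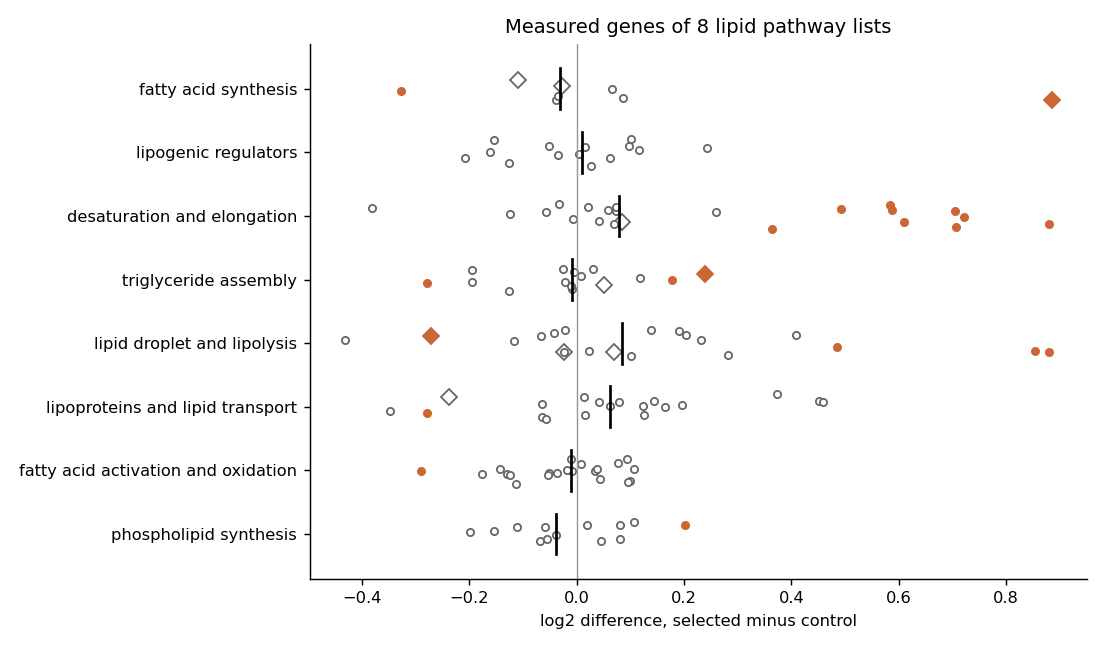
Log2 difference, selected minus control, of every measured gene in 8 lipid pathway lists. Diamonds are the 10 genes described line by line and circles the others, filled where the unadjusted p in limma is under 0.05, and the vertical bar is the median of a list. In the desaturation and elongation list 9 filled points lie between 0.36 and 0.88, and none lies on the lower side.

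Oenocytes use FASN2, Fad2 and eloF, so a marker list of that cell type was read beside them. Of 13 measured oenocyte genes, 12 had higher means (53.7% of all features did) and 7 were higher at an unadjusted p under 0.05 (5.55% of all features). FASN2, Fad2 and eloF are among the 7 and were already counted above. The median was 0.32, and the summed intensity ran from 20005 to 25686 in the control and from 24629 to 32862 in the selected lines. Cyp4g1, the P450 that completes hydrocarbon synthesis, made up 74.9% to 80.9% of that sum, and without it the sum ran from 3964 to 5943 and from 5767 to 7350. Of 8 markers outside the pathway lists, 4 were at an unadjusted p under 0.05. These were Cyp4g1 (0.32 ± 0.091, SE, unadjusted p = 0.00477 in limma), spidey (0.24), CG17562 (0.92) and CG4000 (1.03). Only FarO was no brighter than the probe sets of other organisms. Muscle markers, given below, also had higher means in the selected lines, and the part of either cell type in the difference of FASN2 was not tested.

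Among other synthesis genes, the malic enzyme gene Men, a source of NADPH for fatty acid synthesis, was lower, at -0.33 ± 0.10 (SE, unadjusted p = 0.00711 and adjusted p = 0.322 in limma). It read 11.60, 11.61, 11.47, 11.70 and 11.54 in control lines 1 to 5 and 11.50, 11.30, 11.17, 10.94 and 11.37 in selected lines 1 to 5, and 4 selected lines lay below every control line. With the mean of its probe sets in place of the brightest, Men differed by -0.24 (adjusted p = 0.593 in limma). Idh and Men-b differed by 0.086 and 0.066, and of 8 measured genes of fatty acid synthesis 1 was higher (FASN2) and 1 lower (Men) at an unadjusted p under 0.05. Of 14 lipogenic regulators 0 were at that level in limma. The smallest p there were those of S2P, a protease that releases SREBP (-0.16 ± 0.077, SE), AkhR, the receptor of adipokinetic hormone (0.24 ± 0.14), and Sik3 (-0.21 ± 0.14), a kinase of fat storage.

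Triglyceride assembly went both ways: of 15 genes, 2 were higher (Lpin and the acyltransferase gene Agpat3, 0.18 ± 0.070, SE) and 1 lower (Agpat2, -0.28 ± 0.12) at an unadjusted p under 0.05. With the mean of its probe sets in place of the brightest, Agpat3 differed by 0.086 (adjusted p = 0.920 in limma). Gpdh1, which makes glycerol 3-phosphate, differed by -0.19 ± 0.090 (SE). Among 20 droplet and lipolysis genes, 3 were higher and bmm alone was lower at that level. CG7910 read from 7.49 to 8.63 in the control and from 8.82 to 9.25 in the selected lines, with no overlap, and differed by 0.88 ± 0.19 (SE, unadjusted p = 0.000814 and adjusted p = 0.234 in limma). The gut lipase gene mag differed by 0.85 ± 0.37 and the lipase gene CG6277 by 0.49 ± 0.21 (SE).

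In lipid transport, Mtp, the transfer protein that loads lipid onto lipoproteins, was lower beside apolpp, by -0.28 ± 0.10 (SE, unadjusted p = 0.018 and adjusted p = 0.391 in limma). It was the only one of 19 transport genes at an unadjusted p under 0.05, and the lipocalin gene GLaz and the sterol-binding gene Npc2b differed by 0.37 and 0.45. Among 21 genes of fatty acid activation and oxidation, 1 was at that level, the acyl-CoA synthetase gene hll (-0.29 ± 0.12, SE), and the peroxisomal oxidase gene Acox57D-p and the dehydrogenase gene scu differed by -0.18 and -0.12. Of 13 phospholipid genes, 1 was at that level, Pis, the phosphatidylinositol synthase gene (0.20 ± 0.082, SE), while Pcyt1 and nes differed by 0.11 and -0.20. List medians were -0.031 for synthesis, 0.011 for regulators, -0.0076 for triglyceride assembly, 0.085 for droplet and lipolysis genes, 0.062 for transport, -0.010 for oxidation and -0.039 for phospholipids.

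Markers of other tissues were read in the same way, and none passed adjustment over all features in limma. Beside the counts that follow, 5.55% of all features were higher, 3.97% lower and 9.52% either way at an unadjusted p under 0.05. Of 18 ovary and eggshell genes 16 had lower means and 8 were lower at an unadjusted p under 0.05, with summed intensities of 90984 to 115981 in the control and 54697 to 95161 in the selected lines. Of 16 muscle genes all had higher means and 13 were higher at that level, with a median of 0.85 and sums of 9577 to 19606 and 18689 to 35361. The muscle sum and the FASN2 level ranked the 5 control lines alike: line 2 was lowest, then lines 3, 4, 5 and 1. In the selected lines their orders differed. Selected line 1, which also had the largest 3' excess (2.76), had the highest FASN2 level. Its muscle sum, 18689, was the lowest of the selected lines. Of 12 fat body genes 9 had lower means, 4 of them at that level and 1 higher, with sums of 61828 to 75201 and 52456 to 72360. The yolk protein genes Yp1, Yp2 and Yp3 lead these sums, which were not read without them. The 4 lower genes were Yp2 (-0.28), Yp3 (-0.34), Tsf1 (-0.71) and Lsp2. Lsp2 differed by -3.49, with no overlap (unadjusted p = 4.63e-05 and adjusted p = 0.232 in limma), and the higher gene was Npc2h (0.38). Of 28 gut genes, 5 were higher and 3 lower at that level, with sums of 40842 to 62789 and 37024 to 57401. Male tissue genes, a check on the label, summed to only 330 to 397 and 347 to 446 over 14 genes, of which 0 were at that level. The part of these tissues in the differences of FASN2, the desaturation and elongation genes, bmm, apolpp and Lpin was not tested.

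The genes whose levels ran most like those of FASN2, Lpin and bmm over the 10 lines were looked up among 9643 genes. For FASN2 they were CG34417 (r = 0.97), the glutamate and aspartate transporter gene Eaat2 (r = 0.97) and CG7084 (r = 0.97). For Lpin they were whe (r = 0.96), the perlecan gene trol (r = 0.96) and the respiratory complex III gene UQCR-Q (r = 0.95). For bmm they were CG16956 (r = 0.96), the chorion gene Cp38 (r = 0.95) and CG5039 (r = 0.94). These are the highest of 9643 values over the same 10 arrays, given as a description. With group means subtracted they ran from 0.89 to 0.94.

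By place, the 10 genes are spread over the X chromosome (Lsd-2), arms 2L (FASN1, FASN2 and mdy), 2R (ACC and Lpin), 3L (bmm) and 3R (Desat1 and Lsd-1), and chromosome 4 (apolpp). Among the 10 measured genes nearest to FASN2 in gene order, 1 was at an unadjusted p under 0.05, the complex I gene ND-B14.5B (0.29). Next to bmm it was also 1 of 10, CG17839 (0.50, opposite in sign to bmm). Next to Lpin there were 3 of 10, the odorant-binding gene Obp44a (0.68), CG14757 (0.80) and Gasz (-0.19). Next to each of the other 7 genes it was 0, 1 or 2 of 10, where 9.52% of all features were at that level.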

How the data were processed

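Each deposited value is the intensity of a probe set, on a linear scale as the values show. The authors made these intensities with GCRMA, which corrects background by probe sequence, normalizes arrays together and summarises probes, as the submitters' processing notes name it. GCRMA pulls dim probe sets toward a floor, so small values carry little information: 23 control probe sets of other organisms averaged 2.28 to 3.43 on the log2 scale. The sources used here give no version of it.

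Groups come from the sample titles, and the line numbers used here are the biological replicate numbers in those titles. Of 14010 probe sets, the platform annotation names 1 gene for 12444, several for 327 and none for 1239; 12394 matched RefSeq. Values were taken as log2(intensity + 1), kept when above 3 on at least 5 of 10 arrays, without 44 control probe sets, with the brightest probe set per gene. The 10960 features were fitted with limma 3.58.1 in R 4.3.3 (lmFit, eBayes, two-sided, Benjamini-Hochberg over all features, threshold 0.05). Single values were tested by exact permutation of lines. On simulated data for this comparison, with 10960 features of which 200 were changed, limma recovered 91% of 2-fold changes with 5 false calls. The simulated noise was independent between features, without the structure that real arrays share, so the 91% may not hold for these lines. Precision is limited by the number of arrays.

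The genes, lists and tests were chosen with earlier results of these data known, so lists have no set test and no p of their own. Lists came from textbook knowledge: 155 pathway entries matched a gene, and 12 entries of all lists matched none. Fbp2 and Cyp4g15 were taken off the oenocyte list, and Lpin off the regulators, with the levels of the 10 genes already seen but no list result. Named from each list were up to 3 genes by the smallest p, and the 3 genes most correlated with FASN2, Lpin and bmm. Alternatives were the pseudocount, the filter, scaling, probe set choice, eBayes settings, line number as a block and lines left out.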

Additional observations from a re-analysis of the deposited data

Results flagged for a closer look

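In a group of 5 lines, a line counted as far from the others when its gap to the nearest one exceeded 0.71 of the group's range. Of 78 groups tested, 3 had such a line, a share no larger than the about 1 in 20 that chance gives. All 3 are line 1 of a group. The second probe set of mdy read 5.03 in selected line 1, against 6.10 to 6.21 in the other selected lines. Lsd-1 read 10.02 in control line 1, against 9.45 to 9.62 in the other control lines. Fad2 read 10.30 in selected line 1, against 10.69 to 10.82 in the other selected lines.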

How the results depend on the processing

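Over the 20 alternative settings, FASN2 (0.75 to 1.04) and bmm (-0.31 to -0.22) kept their direction and an unadjusted p under 0.05 in all, and Lpin (0.20 to 0.29) kept its direction in all and that p in 18. None of the 10 genes passed the adjusted threshold in any setting, from limma. With 1 line left out, the number of the 10 genes at an unadjusted p under 0.05 ran from 2 to 4. Over all features, limma called 0 in the full comparison, 2 with line number as a replicate block, and 0 to 3 with 1 line left out (3 without control line 5, 1 without selected line 2), where 1043 were at an unadjusted p under 0.05. The labels do not say that line numbers pair the lines. Same-numbered lines deviated together with r from 0.027 (line 5) to 0.55 (line 1), all above 0, and 5 of 10 samples matched their own number best, a hint of shared structure that does not reach every number. The selected line was higher in 5 of 5 numbered pairs for FASN2 and Lsd-2 and lower in 5 of 5 for bmm, and with the block none of the 10 genes passed (adjusted p in limma 0.160 for FASN2, 0.220 for bmm and 0.727 for Lsd-2). The median of the desaturation and elongation list was 0.079 in the full comparison, 0.36 with the stricter filter (log2 above 5) and 0.25 without line 1 of both groups, and the cause was not tested. It ran from 0.025 to 0.21 with 1 line left out. The FASN2 over FASN1 ratio differed by 1.05 without line 1 of both groups and no longer passed with adjustment (exact permutation, adjusted p = 0.0571), the smallest adjusted p that 4 lines against 4 allow. With 1 line left out it ran from 0.78 to 1.06, and that of Lsd-1 over Lsd-2 from -0.25 to 0.091. Of the 45 pairs of genes, 2 were correlated past the threshold, and 0 without line 1 of both groups or with group means subtracted (permutation tests), where 8 had an unadjusted p under 0.05 over all lines. Small differences changed sign. With 1 line left out Desat1 ran from -0.013 to 0.18, FASN1 from -0.17 to 0.061, Lsd-1 from -0.087 to 0.077, Lsd-2 from -0.013 to 0.16, mdy from -0.020 to 0.12 and Men-b from -0.0059 to 0.17. Lsd-1 was at 0.013 without line 1 of both groups. The second probe sets, an alternative chosen after seeing the data, gave 0.11 for ACC and -0.021 for mdy.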
